A study of Mus musculus with 18 samples.

Results

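Adhesion G protein-coupled receptors are cell surface proteins that join a long extracellular part, built from adhesion domains, to a membrane core of the G protein-coupled receptor type. The genes followed here are the rows whose symbol starts with Adgr, followed by a subfamily letter and a number, together with Celsr1, Celsr2 and Celsr3. The files held 30 such genes among 35869 gene symbols, and the 11 with at least 1 TPM in 4 or more of 17 libraries are described in full. TPM is a transcript level corrected for gene length and scaled to the same sum in every library, so it can be compared between genes. The libraries come from microglia, the resident macrophages of the brain, and from astrocytes, sorted from mice in which Tgfb1, which encodes the cytokine TGF-beta 1, was targeted in Cx3cr1-expressing cells, and from controls. The study's title places the deletion in adult mice and asks about ligand made by microglia themselves.

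Most adhesion receptors are cut during maturation at a site next to the membrane, and the extracellular fragment stays bound to the membrane fragment. When a ligand or the matrix pulls the fragments apart, a short tethered peptide is exposed that can activate G proteins. In the brain the family is known from several roles: latrophilins, BAI receptors and CELSR receptors in synapse formation and cell polarity, Adgrg1 (GPR56) in cortical development, oligodendrocyte precursors and microglia, and the EGF-TM7 receptors of subfamily E on macrophages and other leukocytes.

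The upstream sequences of Adgrg1 and Adgre4 are shown because these genes had the largest genotype differences among the receptors tested. They are RefSeq sequences of GRCm38.p6, plus strand, taken from the 250 bases before an annotated start and trimmed to the stretch free of annotated exons. Capitals mark CAGAC (a core SMAD element), GAGGAA (a PU.1 core) or TGANTCA (an AP-1 element) on either strand, and the 3 motifs do not overlap in the printed stretches.
Adgrg1, upstream start, chr8:94976859-94976992: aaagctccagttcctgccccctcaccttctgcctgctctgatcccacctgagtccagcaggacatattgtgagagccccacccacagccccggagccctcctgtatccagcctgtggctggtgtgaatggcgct
Adgrg1, downstream start, chr8:94984149-94984370: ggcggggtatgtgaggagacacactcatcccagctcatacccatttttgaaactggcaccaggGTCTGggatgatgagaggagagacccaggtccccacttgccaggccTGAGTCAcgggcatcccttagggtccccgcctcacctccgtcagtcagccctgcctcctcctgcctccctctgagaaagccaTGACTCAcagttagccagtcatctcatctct
Adgre4, chr17:55749734-55749983: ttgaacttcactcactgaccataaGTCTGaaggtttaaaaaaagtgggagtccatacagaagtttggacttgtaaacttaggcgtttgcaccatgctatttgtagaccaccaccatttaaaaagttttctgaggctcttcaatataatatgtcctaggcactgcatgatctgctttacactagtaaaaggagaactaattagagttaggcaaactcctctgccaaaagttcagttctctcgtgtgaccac
The upstream Adgrg1 stretch has no match, although its whole 250-base window holds 2 CAGAC matches. The downstream Adgrg1 stretch has 1 CAGAC match and 2 TGANTCA matches, and the Adgre4 stretch has 1 CAGAC match. Over all 32851 windows of the same length, 42.2% held CAGAC, 23.3% held GAGGAA and 6.75% held TGANTCA. GC content was 60.8% and 59.2% in the Adgrg1 windows and 39.6% in the Adgre4 window, against a median of 52.4%. CpG counts of 4, 4 and 2 compare with a median of 6. These matches describe the letters only. RefSeq windows were found for 22 of the 30 genes. Adgre1 and Adgre5 had no entry.

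All mice were C57BL/6, and all were given tamoxifen by mouth (5 doses, 180 mg/kg each). Controls carried Cx3cr1CreERT2 alone. This recombinase becomes active with tamoxifen in cells that express Cx3cr1, which include microglia and other macrophages. Mice called KO carried Cx3cr1CreERT2 with floxed Tgfb1 alleles (Tgfb1fl/fl). The age of the animals is not given in the labels used here. The 4 KO animals each gave 1 library of microglia and 1 of astrocytes. Of 5 control animals, all gave an astrocyte library, and animals 1, 2, 4 and 5 gave a microglial library. Cells were dissociated enzymatically in the presence of inhibitors and sorted by flow cytometry. The remaining library of the 18 was left out, since its title names astrocytes and its sample code has the ending used for microglia. TPM values keep no read depth, so no counting interval can be given, and in sorted cells less RNA per cell cannot be told apart from fewer cells expressing a gene. Tests below are limma's moderated test on log2(TPM + 1), two-sided, with Benjamini-Hochberg adjustment over every gene that reached 1 TPM in 4 or more libraries of the comparison. A gene is called at an adjusted p under 0.05, and a log2 difference on this scale understates the change of a gene near 1 TPM.

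Tgfb1 itself was at 3.00 ± 0.271 TPM in control microglia (SD, n = 4) and 1.70 ± 0.294 TPM in KO microglia (SD, n = 4), with no overlap. It was at most 0.3 TPM in every astrocyte library. Summed TPM of 10 microglial markers lay between 43131 and 46717 in control microglia, 10021 and 11051 in KO microglia, and 264 and 478 in astrocytes. All 10 markers fell in KO microglia. Summed TPM of 8 markers of border-associated macrophages lay between 390 and 745 in control microglia and between 5715 and 6493 in KO microglia. Of those 8 markers, 5 rose and 1 fell. Astrocyte markers summed to between 17454 and 30747 TPM in astrocytes and to at most 634 TPM in microglia. Control animals 1 and 2 and all KO animals had Xist RNA between 28.6 and 48.3 TPM, while control animals 3, 4 and 5 had Ddx3y, a Y-linked gene, between 46.0 and 56.3 TPM. Sex-linked RNA therefore differs between the control animals, and its part in the results was not tested beyond comparing the KO animals with each kind of control.

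The cell types differed in how much of this receptor family they expressed and in which members. The 30 genes summed to 461 ± 34.0 TPM in control microglia (SD, n = 4), 774 ± 116 TPM in KO microglia (SD, n = 4), 108 ± 20.4 TPM in control astrocytes (SD, n = 5) and 131 ± 30.7 TPM in KO astrocytes (SD, n = 4). In microglia a single receptor made up most of this sum. Adgre1 held 87.1% of the summed TPM in control microglia and 86.2% in KO microglia. What changed was the composition of the remainder: Adgrg1 held 9.33% in controls and 0.0672% in KO animals, whereas Adgre4 held 1.93% in controls and 12.8% in KO animals. Astrocytes spread the sum over more members. Adgrg1 led with 36.2% in control and 30.4% in KO astrocytes, followed in controls by Adgra1 with 17.3% and Adgrl4 with 10.2%. The Adgrl4 share rested on control astrocytes 4, and without that library it was 6.47%, below Adgra3 (9.84%) and Adgrb3 (7.61%). Receptors with a group mean of at least 1 TPM numbered 5 in either kind of microglia, 9 in control astrocytes and 10 in KO astrocytes.

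**Figure D1:**
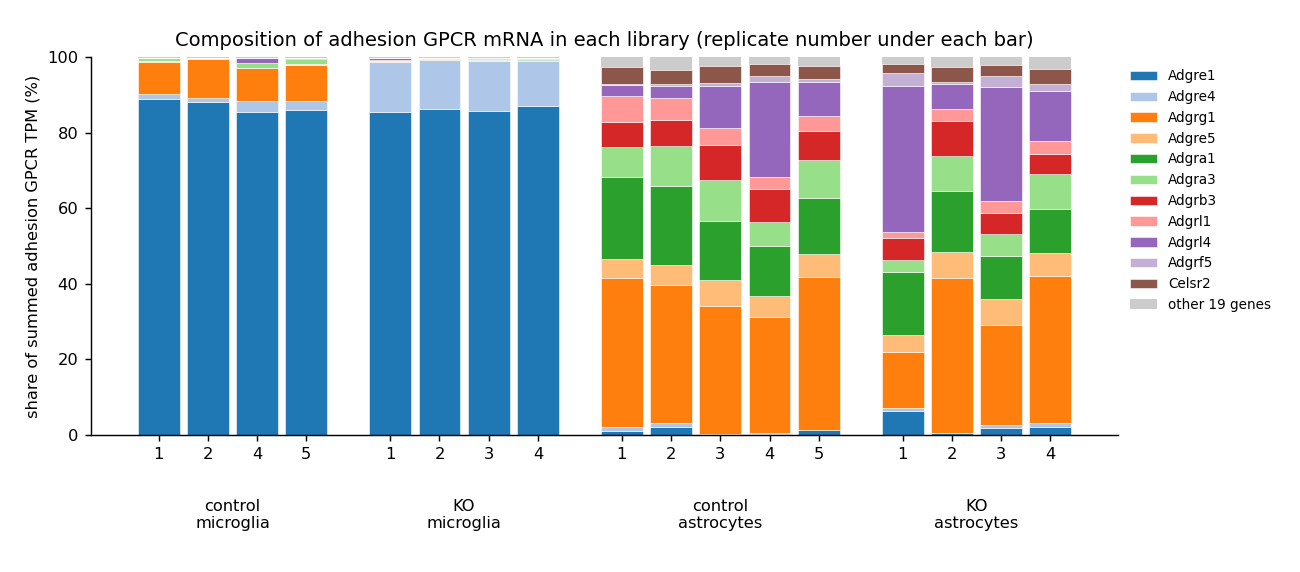
Stacked bars give each gene's share of the summed TPM of the 30 adhesion receptor genes in each of the 17 libraries, with the replicate number under each bar. Adgre1 fills most of every microglial bar, the Adgrg1 segment of control microglia (9.33%) is missing from KO microglia, where Adgre4 holds 12.8%, and Adgrl4 takes a share in astrocytes that varies between libraries of the same group.

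Subfamily E holds the EGF-TM7 receptors, whose extracellular part carries EGF-like repeats. Adgre1, on chromosome 17 (57358691-57483527, plus strand, GENCODE M21 on GRCm38), encodes the F4/80 antigen used to identify mouse macrophages. It was at 399.6, 369.7, 405.2 and 429.6 TPM in control microglia and at 644.1, 719.0, 762.0 and 541.6 TPM in KO microglia. Every KO library lay above every control library. Adgre1 rose by 0.72 on the log2 scale (SE 0.11, limma adjusted p = 0.00107), and its mean was 1.66 times that of controls. In a fit over all 4 groups together the same difference did not pass, with limma adjusted p = 0.205. The 10 microglial identity markers fell in the same libraries in which Adgre1 rose.

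Adgre4, on chromosome 17 (55749984-55853662, plus strand), encodes a myeloid receptor of the same subfamily, and its gene ends 1505028 bp before Adgre1 starts. Control microglia 1 and 2 had 6.1 and 4.6 TPM, and control microglia 4 and 5 had 14.4 and 11.2 TPM. KO microglia had 98.9, 107.4, 116.7 and 74.4 TPM, so the lowest KO library was well above the highest control library. Adgre4 rose by 3.41 on the log2 scale (SE 0.31, limma adjusted p = 3.1e-05), with a mean 10.9 times that of controls. It was the 81st highest log2 difference of 13054 genes tested. The 2 control animals with Xist RNA, the same kind as the KO animals, had the lower Adgre4 values. Other myeloid cells also express receptors of this subfamily. Summed TPM of 5 monocyte markers lay between 6.0 and 11.3 in control and between 26.4 and 29.5 in KO microglia, with 1 marker risen, 1 fallen and Plac8 listed at 0 in KO microglia. Among the monocyte markers, mean Itga4 went from 0.85 TPM in control to 25.35 TPM in KO microglia, and mean Ccr2 from 7.075 to 2.475 TPM. Summed TPM of 4 eosinophil markers lay between 21.9 and 28.8 in control and between 0.9 and 3.4 in KO microglia. Only 1 of these 4 markers could be tested, and it fell. The part of these cells and of border-associated macrophages, whose marker sum was higher in KO microglia, in the Adgre4, Adgre1 and Adgre5 differences was not tested.

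Adgre5, on chromosome 8 (83723251-83741326, minus strand), encodes CD97, a leukocyte receptor that binds CD55 and Thy1. It was low in microglia, at 0.3, 0.2, 0.5 and 0.4 TPM in controls and at 1.7, 1.7, 2.3 and 2.0 TPM in KO animals. The groups did not overlap, and the gene rose by 1.12 on the log2 scale (SE 0.17, limma adjusted p = 8.0e-04). It reached the level filter through the KO libraries alone. An exon of Adgre5 overlaps an exon of Ddx39 on the opposite strand, and the strand setting of the counting is not given in the sources used here, so the Adgre5 level is uncertain. Ddx39 was between 23.5 and 31.7 TPM in microglia, with a difference of 0.08 on the log2 scale between genotypes (limma adjusted p = 0.734).

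Adgrg1, on chromosome 8 (94974751-95014217, plus strand), encodes GPR56, a receptor for collagen III and transglutaminase 2. Control microglia had 38.9, 43.5, 40.6 and 48.5 TPM. KO microglia had 0.7, 0.5, 0.6 and 0.3 TPM, none of which came near the control range. Adgrg1 fell by 4.85 on the log2 scale (SE 0.15, limma adjusted p = 5.3e-08), the 15th lowest log2 difference of 13054 genes tested, and the control mean was 81.7 times the KO mean. It reached the level filter through the control libraries alone. Its neighbours on the chromosome belong to the same subfamily, Adgrg5 with a gap of 31470 bp and Adgrg3 with a gap of 3474 bp, and neither exceeded 0.3 TPM in any of the 17 libraries.

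Of the 30 genes, 6 could be tested between genotypes in microglia and 24 were below the filter. Among the 6 tested, 3 were higher in KO microglia (Adgre1, Adgre4 and Adgre5), 1 was lower (Adgrg1) and 2 were not called. Over all 13054 genes tested, 28.4% were called, 14.2% higher and 14.2% lower. Adgre5 and Adgrg1 passed the filter through 1 genotype alone. The median log2 difference was 0.38 over the 6 genes and 0.004 over all genes tested. Against control animals 1 and 2 alone, which share Xist RNA with the KO animals, the log2 difference was -4.80 for Adgrg1, 3.97 for Adgre4, 1.22 for Adgre5 and 0.78 for Adgre1. Against control animals 4 and 5 it was -4.90, 2.85, 1.01 and 0.66 in the same order. All 8 of these differences passed, with limma adjusted p of at most 0.00984. Each KO library lay above every control library for the 3 EGF-TM7 receptors and below for Adgrg1. For Adgre5 and Adgrg1 the filter had set this lack of overlap, but not the size of the difference. The share of all genes without such overlap was not counted.

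The 2 tested receptors without a call varied among control animals. Adgra3, on chromosome 5 (49959956-50059006, minus strand), encodes GPR125. It was at 3.6, 0.4, 5.9 and 6.5 TPM in control microglia and at 2.7, 2.9, 2.2 and 2.2 TPM in KO microglia. The KO libraries lay close together inside the control range, and the log2 difference was -0.29 (SE 0.47, limma adjusted p = 0.704). The value depended on control microglia 2: without this library the difference was -0.83 with limma adjusted p = 0.0189, and without control animals 1 and 2 it was -1.04 with limma adjusted p = 0.00387. Against control animals 1 and 2 alone it was 0.46 with limma adjusted p = 0.501. Adgrl4 was at 0, 0, 5.7 and 1.0 TPM in control microglia and at 3.3, 0, 2.4 and 0 TPM in KO microglia, with a log2 difference of 0.03 (SE 0.70, limma adjusted p = 0.981).

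**Figure D2:**
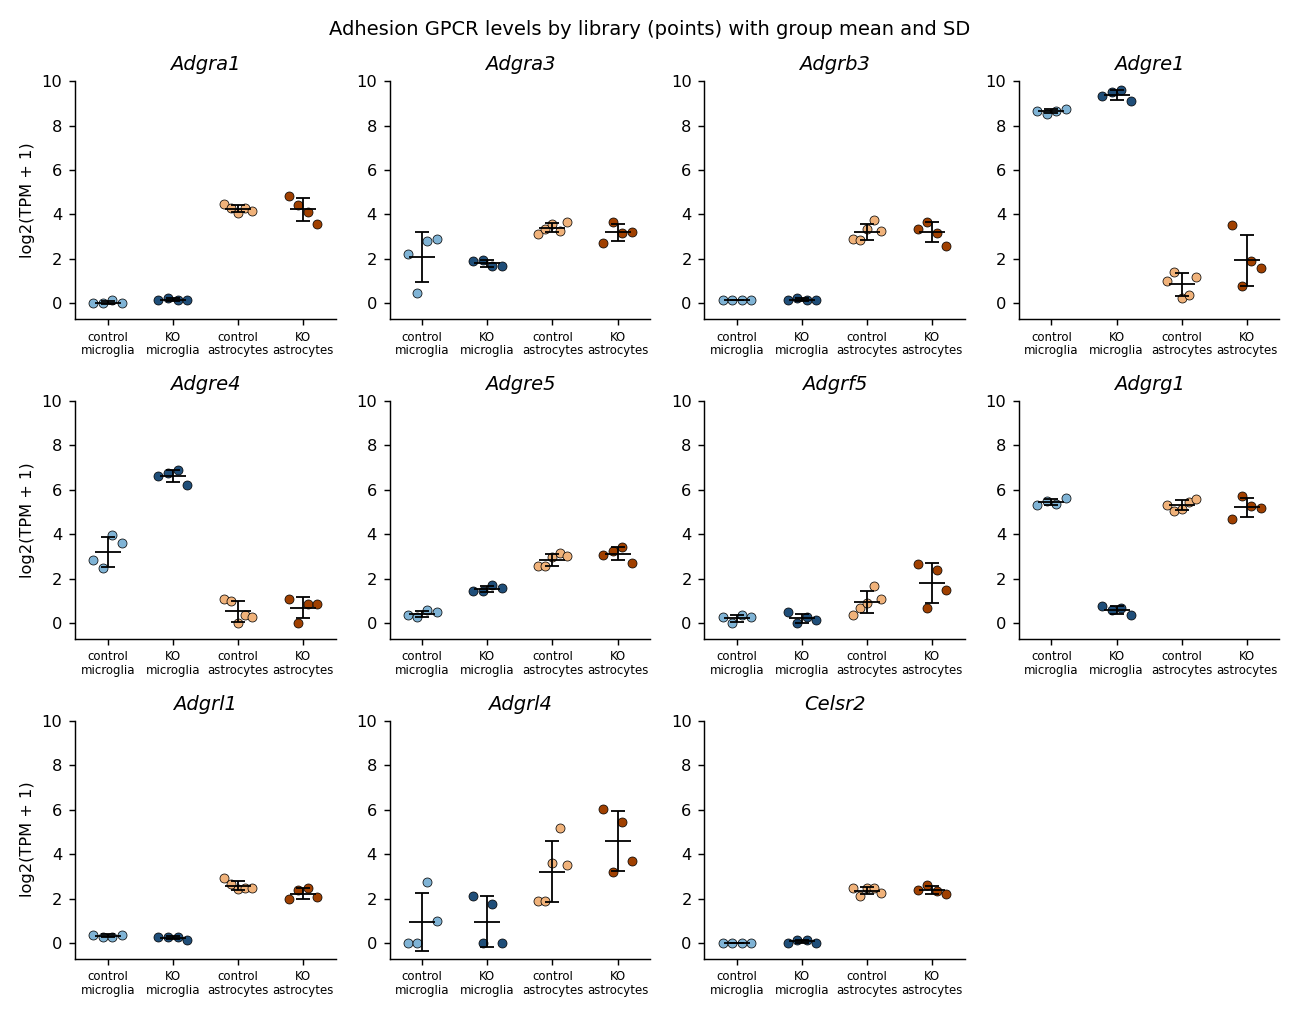
Points give log2(TPM + 1) of each of the 11 described receptor genes in each library, grouped by genotype and cell type, with the group mean and SD as bars. Adgrg1 overlaps between control microglia and both astrocyte groups and is at most 0.7 TPM in KO microglia, while Adgre4 is highest in KO microglia.

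Between control microglia and control astrocytes, 9 of 10 tested receptors differed, 2 higher in microglia and 7 higher in astrocytes, on a background of 65.7% of 15332 genes called. Adgre1 stood 7.79 above astrocytes on the log2 scale (SE 0.24, limma adjusted p = 8.6e-10) and Adgre4 2.67 above (SE 0.34, limma adjusted p = 5.1e-05). Adgrg1 was the exception. Control astrocytes had 38.4, 32.4, 33.8, 43.2 and 46.6 TPM of Adgrg1, a range that overlaps that of control microglia. The log2 difference was 0.15 with a 95% interval from -0.15 to 0.45 (limma adjusted p = 0.365). In KO animals the same gene stood 4.61 lower in microglia than in astrocytes (log2 difference -4.61, SE 0.22, limma adjusted p = 8.2e-08). All 10 receptors tested between KO microglia and KO astrocytes were called, 2 higher and 8 lower in microglia, on a background of 69.4%. Of the 8, 5 (Adgra1, Adgrb3, Adgrg1, Adgrl1 and Celsr2) had no KO microglial library at 1 TPM and passed the filter through astrocytes alone.

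Of the 7 receptors higher in control astrocytes, 5 (Adgra1, Adgrb3, Adgre5, Adgrl1 and Celsr2) had no control microglial library at 1 TPM and passed the filter through astrocytes alone. Adgra1 (GPR123, chromosome 7, 139834174-139878088, plus strand), an orphan receptor known mainly from the central nervous system, was at 18.3 ± 2.09 TPM in control astrocytes (SD, n = 5) and at most 0.2 TPM in any microglial library. Adgrb3 (BAI3, chromosome 1, 25067476-25829707, minus strand), a synaptic receptor for C1q-like proteins, was at 8.58 ± 2.46 TPM in control astrocytes (SD, n = 5) and at most 0.2 TPM in microglia. Adgrl1 (latrophilin 1, chromosome 8, 83900105-83941954, plus strand), which binds teneurins and FLRT proteins, was at 5.06 ± 0.971 TPM in control astrocytes (SD, n = 5) and at most 0.3 TPM in microglia. Celsr2 (chromosome 3, 108390851-108415552, minus strand), an atypical cadherin of planar cell polarity, was at 4.14 ± 0.568 TPM in control astrocytes (SD, n = 5) and at most 0.1 TPM in microglia. Adgra3 and Adgre5 were higher in astrocytes, at 9.64 ± 1.55 TPM and 6.32 ± 1.34 TPM in controls (SD, n = 5). Adgra3 was also present in control microglia, where Adgre5 was at most 0.5 TPM. Log2 differences of these receptors between control microglia and control astrocytes ran from -4.23 for Adgra1 to -1.30 for Adgra3 (limma adjusted p = 0.0228). The Adgra3 call was lost with quantile normalization, with limma adjusted p = 0.0537. Adgrl4 was 2.28 lower in microglia (log2 difference -2.28, limma adjusted p = 0.0234), and its call was lost without control microglia 1 (limma adjusted p = 0.0684) or 2 (limma adjusted p = 0.0661) and with quantile normalization (limma adjusted p = 0.0504). Summed TPM of 6 markers of oligodendrocyte precursors, cells known to express Adgrg1, lay between 279 and 756 in astrocyte libraries and at most at 3.5 in microglia. Summed TPM of 9 neuronal markers lay between 55.2 and 151 in astrocytes and between 9.5 and 82.3 in microglia. Summed TPM of 8 markers of mature oligodendrocytes lay between 4144 and 6172 in control astrocytes and between 5626 and 7617 in KO astrocytes 1 to 3, while KO astrocytes 4 stood apart at 14157. That library also had the lowest sum of astrocyte markers, 17454 TPM. The part of these cells in the astrocyte levels was not tested. An exon of Adgrl1 overlaps an exon of Gm10644 on the opposite strand, so its level is uncertain in the same way as that of Adgre5.

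In order of mean TPM, control astrocytes had Adgrg1, Adgra1, Adgrl4, Adgra3, Adgrb3, Adgre5, Adgrl1, Celsr2, Adgrf5 and Adgre1. The lowest Adgrg1 library, at 32.4 TPM, was above the highest Adgra1 library, at 21.2 TPM. Adgrl4 overlapped both through control astrocytes 4, at 35.6 TPM, and its place rested on that library: without it the Adgrl4 mean was 6.70 TPM, below those of Adgra3 (9.88 TPM) and Adgrb3 (7.65 TPM). Lower neighbours such as Adgra3 and Adgrb3, or Adgrl1 and Celsr2, overlapped between libraries. Control microglia had Adgre1, Adgrg1, Adgre4 and Adgra3 in that order, of which Adgre4 and Adgra3 overlapped. KO microglia had Adgre1, Adgre4, Adgra3 and Adgre5 as the leading 4, and Adgra3 and Adgre5 overlapped.

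Between KO and control astrocytes none of the 10 receptors tested was called by limma, and 0 of the 10 had an unadjusted p under 0.05. Only 1 of 15231 genes was called at all, 0.00657%, while 1939 had an unadjusted p under 0.05. Adgrg1 was at 24.6, 51.3, 37.7 and 35.8 TPM in KO astrocytes, around the control range. Its log2 difference was -0.09 with a 95% interval from -0.53 to 0.35 (limma adjusted p = 0.876). Adgra1 was at 27.3, 20.2, 16.2 and 10.8 TPM in KO astrocytes, with a log2 difference of -0.04 (limma adjusted p = 0.958). Adgra3 was at 7.8, 9.3, 10.8, 8.7 and 11.6 TPM in control astrocytes and at 5.5, 11.6, 8.1 and 8.4 TPM in KO astrocytes. Adgre5 was at 4.9, 4.9, 6.8, 7.8 and 7.2 TPM in control and at 7.5, 8.6, 9.7 and 5.6 TPM in KO astrocytes. The genotypes overlapped for both receptors, with log2 differences of -0.21 and 0.27. Adgrb3 was at 6.5, 6.2, 9.2, 12.3 and 8.7 TPM in control and at 9.3, 11.5, 8.0 and 5.0 TPM in KO astrocytes. Celsr2 was at 4.5, 3.3, 4.5, 4.6 and 3.8 TPM in control and at 4.2, 5.1, 4.0 and 3.6 TPM in KO astrocytes. The genotypes overlapped for these receptors as well, with log2 differences of -0.03 and 0.02. Adgrl1 was at 6.7, 5.2, 4.4, 4.5 and 4.5 TPM in control and at 2.9, 4.2, 4.5 and 3.2 TPM in KO astrocytes. It had the most negative difference, -0.37 (SE 0.18, limma adjusted p = 0.415), and the genotypes overlapped. The median was -0.005 over the 10 receptors and 0.07 over all genes tested.

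Adgre1 in astrocytes was low and uneven. It was at 1.0, 1.7, 0.2, 0.3 and 1.3 TPM in control astrocytes and at 10.5, 0.7, 2.7 and 2.0 TPM in KO astrocytes, with the high value in KO astrocytes 1. The log2 difference was 1.09 (limma adjusted p = 0.396). Summed TPM of the 8 markers of border-associated macrophages was 109.7 in KO astrocytes 1, against 10.8 to 42.0 in the other 8 astrocyte libraries, and 10 microglial markers summed to between 264 and 478 TPM in astrocytes. The part of these cells in the astrocyte Adgre1 values was not tested.

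The genotype difference itself was compared between cell types for 11 receptors in a contrast over 17 libraries, and 3 were called, on a background of 15.5% of 17087 genes. For Adgrg1 the KO effect was 4.76 lower in microglia than in astrocytes (log2 contrast -4.76, SE 0.25, limma adjusted p = 2.3e-09). For Adgre4 it was 3.26 higher in microglia (SE 0.45, limma adjusted p = 8.0e-05), although Adgre4 did not exceed 1.1 TPM in any astrocyte library. For Adgre5 it was 0.84 higher (SE 0.24, limma adjusted p = 0.0268). The Adgre5 call was lost without KO microglia 3, with limma adjusted p = 0.0573, or without KO astrocytes 4, with limma adjusted p = 0.0563. Adgre1 gave a contrast of -0.36 (SE 0.56, limma adjusted p = 0.736), so a difference of its KO effect between the cell types was not shown.

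**Figure D3:**
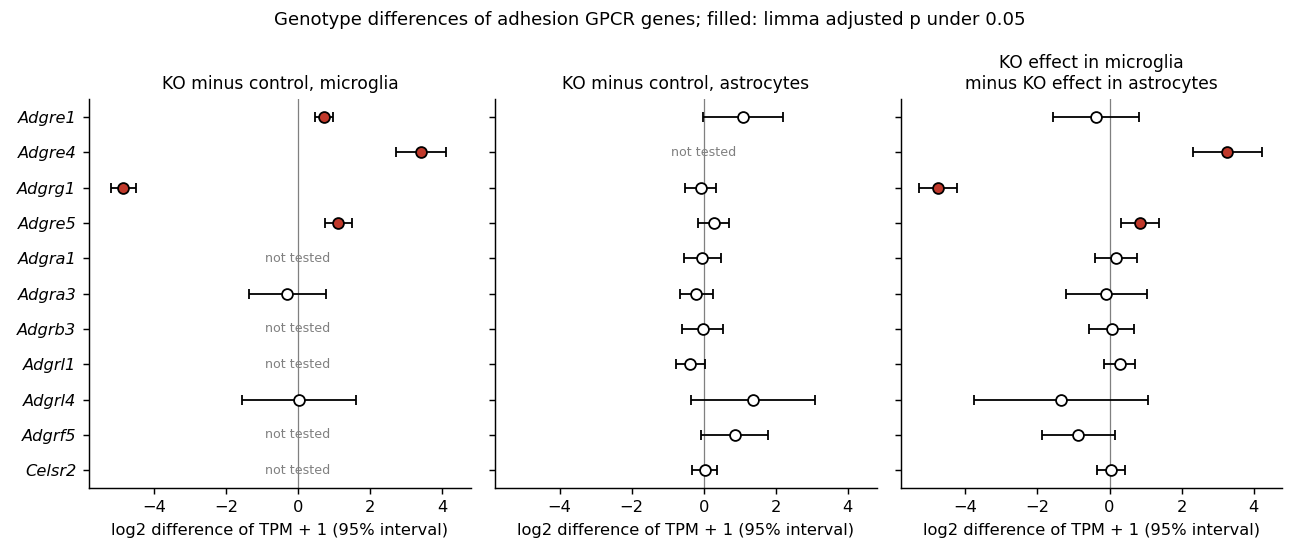
Points give log2 differences of TPM + 1 with 95% intervals for KO against control microglia, KO against control astrocytes, and the difference between those effects, and filled points have a limma adjusted p under 0.05. In microglia Adgrg1 lies at -4.85 and Adgre4 at 3.41, while every astrocyte point tested is open, with the widest interval for Adgrl4.

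A further pair of receptors is known from blood vessels. Adgrl4 (ELTD1, chromosome 3, 151437887-151545086, plus strand) is an endothelial receptor, and Adgrf5 (GPR116, chromosome 17, 43360451-43459557, plus strand) is expressed by endothelium and by alveolar cells of the lung. Adgrl4 was at 2.7, 2.7, 11.0, 35.6 and 10.4 TPM in control astrocytes and at 63.8, 8.2, 42.6 and 12 TPM in KO astrocytes. KO astrocytes 1 and 3 and control astrocytes 4 stood above the others. Adgrf5 was at 0.3, 0.6, 0.9, 2.2 and 1.1 TPM in control astrocytes and at 5.4, 0.6, 4.2 and 1.8 TPM in KO astrocytes, highest in the same 3 libraries. Genotype differences were 1.38 (SE 0.77, limma adjusted p = 0.462) and 0.86 (SE 0.41, limma adjusted p = 0.414) on the log2 scale, and the genotypes overlapped for both genes. For Adgrl4 the difference was 2.70 against control animals 1 and 2 alone (limma adjusted p = 0.198) and 0.49 against control animals 3, 4 and 5 (limma adjusted p = 0.874). Neither gene was called with all libraries. Leaving out KO astrocytes 1 and 3, a setting added after seeing the data, also gave no call and decides nothing further. The KO effect in microglia minus that in astrocytes was -1.35 for Adgrl4 (SE 1.14, limma adjusted p = 0.494), and with the animal as a replicate block it was -1.44 and passed (limma adjusted p = 0.00624). For Adgrf5 it was -0.86 (limma adjusted p = 0.268), and without KO astrocytes 2 it was -1.24 and passed (limma adjusted p = 0.0434).

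Summed TPM of 12 endothelial markers, among them Cldn5 and Pecam1, varied between astrocyte libraries in the same way. In control astrocytes the sum was 60.0, 38.0, 94.9, 197.3 and 130.5 TPM, and in KO astrocytes 584.3, 46.5, 381.7 and 188.7 TPM. Across the 9 astrocyte libraries, Adgrl4 followed this sum with Pearson's r = 0.92 (exact permutation p = 9.4e-04, adjusted p = 9.4e-04) and Spearman's rank correlation = 0.95 (exact permutation p = 2.5e-04, adjusted p = 3.9e-04), on the log2(TPM + 1) scale. Adgrf5 followed it with r = 0.96 (exact permutation p = 6.6e-05, adjusted p = 1.3e-04) and a rank correlation of 0.95 (exact permutation p = 3.9e-04, adjusted p = 3.9e-04). The tests are two-sided and adjusted over these 2 genes. Without KO astrocytes 1 and control astrocytes 2, the libraries farthest from the median sum, r was 0.84 and 0.96 over the remaining 7. The groups of 5 and 4 libraries are too small for a value within each genotype. Mural and fibroblast-like markers varied between these libraries as well. They summed to 460.0, 208.3, 1077.0, 3229.2 and 2925.9 TPM in control astrocytes. In KO astrocytes the sum was 6411.8, 772.7, 9677.7 and 3660.7 TPM, also highest in KO astrocytes 1 and 3. The relation of Adgrl4 and Adgrf5 to this sum was not tested. In microglia the 4 libraries with at least 1 TPM of Adgrl4 had the 4 highest endothelial sums, between 29.1 and 39.3 TPM, against 3.6 to 14.4 TPM in the other 4.

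**Figure D4:**
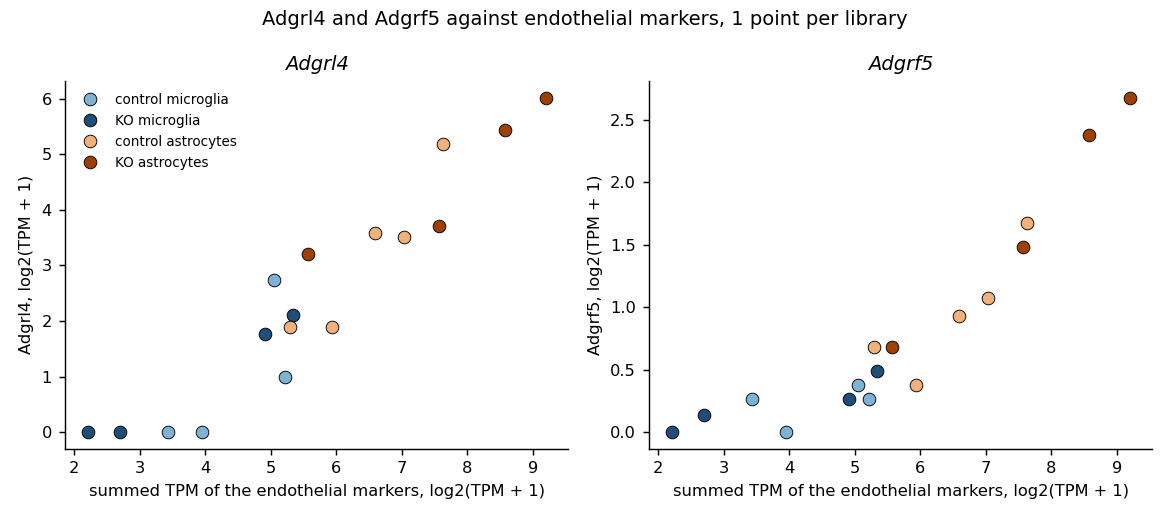
Each point is a library, with the summed TPM of 12 endothelial markers on the horizontal axis and Adgrl4 (left) or Adgrf5 (right) on the vertical axis, both as log2(TPM + 1). Both genes are highest in KO astrocytes 1 and 3, where the endothelial sum was 584.3 and 381.7 TPM, and at or near 0 in microglia with a low sum.

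Ligands and binding partners of the family were a list of 35 genes, of which 6 were tested in microglia. Of those 6, 2 rose, 3 fell and 1 was not called, where 14.2% of all genes tested rose and 14.2% fell. The median log2 difference was -1.12, against 0.004 over all genes. Cd55 passed the filter through KO libraries alone and Whrn through control libraries alone. For 2 of the 5 calls the filter therefore set the lack of overlap between genotypes, but not the size of the difference. Tgm2, transglutaminase 2, which binds the extracellular part of GPR56, went from 64.8 ± 12.7 TPM in control to 2.63 ± 1.32 TPM in KO microglia (SD, n = 4 each) and fell by 4.26 on the log2 scale (limma adjusted p = 8.5e-06). Rtn4rl1, a Nogo receptor relative from the group of receptors that bind BAI proteins, fell by 3.10 (limma adjusted p = 6.4e-07), and Whrn, a scaffold of the Adgrv1 complex in sensory cells, fell by 1.55 (limma adjusted p = 1.5e-04). Cd55, the ligand of CD97, went from 0.425 ± 0.330 TPM to 6.53 ± 2.17 TPM (SD, n = 4 each) and rose by 2.39 (limma adjusted p = 1.2e-04). Adgre5 and the gene of its ligand CD55 both rose, and Adgrg1 and Tgm2 both fell, in the same libraries. Whether the genes of either pair are linked was not tested. The fifth called gene, Prnp, the prion protein gene, rose by 0.98 (limma adjusted p = 0.00232) and was named after its value was seen.

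A list of 12 engulfment genes holds effectors of ADGRB1 such as Elmo1 and Dock2, and also receptors and a bridging protein that do not act downstream of it, among them Axl, Mertk and Mfge8. Of 10 tested 1 rose, 3 fell and 6 were not called, beside 28.4% of all genes called, and the median was -0.31. Axl, a phagocytic receptor tyrosine kinase, rose by 3.85 (limma adjusted p = 2.2e-06), from 1.75 ± 0.827 TPM to 38.0 ± 7.53 TPM (SD, n = 4 each). Elmo1, the adaptor that ADGRB1 recruits, fell by 1.95 (limma adjusted p = 5.5e-06), its partner Dock2 by 0.83 (limma adjusted p = 0.00177) and Mertk, a relative of Axl, fell by 1.01 (limma adjusted p = 0.00249). Adgrb1 itself was listed at 0 in every microglial library. Of 15 planar cell polarity partners of the CELSR receptors 5 were tested, 1 fell and 4 were not called, beside 14.2% of all genes that fell. Vangl1, a membrane protein of that pathway, went from 1.6 to 0.125 TPM and fell by 1.21 (limma adjusted p = 7.3e-04), with a list median of -0.31. It passed the filter through control libraries alone.

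In astrocytes 17 ligands and partners, 11 engulfment genes and 14 planar cell polarity genes were tested, and limma called none. Their medians were -0.05, 0.13 and -0.03 on the log2 scale, beside 0.07 over all genes tested. Thy1, a ligand of CD97, was at 39.1 ± 10.7 TPM in control (SD, n = 5) and 15.8 ± 2.67 TPM in KO astrocytes (SD, n = 4), a log2 difference of -1.23 (limma adjusted p = 0.221). Prnp differed by -0.41 (limma adjusted p = 0.328). Mfge8, a bridge between dying cells and phagocytes, differed by -0.61 (limma adjusted p = 0.292) and Crk, an adaptor, by 0.42 (limma adjusted p = 0.345). Prickle1 and Vangl1, of planar cell polarity, differed by 0.53 (limma adjusted p = 0.436) and 0.46 (limma adjusted p = 0.521).

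The other 19 receptors stayed under the level set for description. Just inside it was Adgrf5, with at least 1 TPM in 5 libraries, and just outside was Adgrl3, with at least 1 TPM in 2 libraries and a highest value of 1.2 TPM, and it was listed at 0 in microglia. The highest value of Adgrd1 was 0.7 TPM, in KO microglia. The highest values of Celsr1 and Adgrf4 were 0.5 TPM, in astrocytes. Adgra2 and Adgrl2 reached 0.4 TPM, and Adgrb1, Adgrf2, Adgrg3, Adgrg6 and Adgrv1 reached 0.3 TPM. Adgrb2, Adgrg2 and Adgrg5 reached 0.2 TPM, and Adgrf3, Adgrg7 and Celsr3 reached 0.1 TPM. Adgrf1 and Adgrg4 were listed at 0 in all 17 libraries. By subfamily, all 3 genes of E reached the level, as did 2 of 3 in A, 2 of 4 in L, 1 of 3 in B, 1 of 3 in CELSR, 1 of 5 in F, 1 of 7 in G and none in D or V.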

How the data were processed

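RNA of sorted mouse microglia and astrocytes was sequenced as paired 61 bp reads, per the labels' protocols. The deposited values are TPM, rounded by the authors to 1 decimal in a file for each library, and a level below 0.05 TPM appears as 0. STAR 2.6.1e, featureCounts 1.6.2, Trim Galore 0.4.2, cutadapt 1.9.1 and the build mm10 are named in the submitters' processing notes, without the gene annotation, strand setting or handling of multi-mapping reads. Each file sums to 1000000 within rounding, so depth is unknown. Groups follow the labels. Labels number the animals, and nothing else says how the libraries are separate, so p-values measure the spread between these animals.

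Genes that reached 1 TPM in 4 or more libraries were tested on log2(TPM + 1) with limma 3.58.1 in R 4.3.3 (variance trend, Benjamini-Hochberg adjustment over all genes, threshold 0.05), and the script was tested on simulated data. Tables and plots used matplotlib 3.10.9, numpy 2.4.6 and pandas 2.3.3 under Python 3.11.15. The receptor genes, gene lists and rules were chosen with earlier results of these data known. Named genes are every receptor past the level, and from each partner list up to 4 called genes with the smallest p, or 2 with the smallest p where none was called. Alternatives were quantile normalization, median-of-ratios scaling, pseudocounts of 0.1 and 5 TPM, a filter at 5 TPM, no filter, no trend, array weights, 1 fit over all groups, a replicate block, control animals 1 and 2 alone or left out, leaving out each library and, added after seeing the data, KO astrocytes 1 and 3 left out, and Adgrl4 levels without control astrocytes 4. Positions are from GENCODE M21 and upstream sequences from RefSeq, both GRCm38. The results of 1 partner list are not reported here.

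Microglia and astrocytes with the same number came from the same animal by their labels. Their deviations from the group means correlated between 0.0895 and 0.219 in 4 control animals and between 0.0178 and 0.132 in 4 KO animals. The main tests used no block and treated libraries of the same animal as separate. In comparisons between cell types the replicate block, run only as an alternative, was the animal.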

Additional observations from a re-analysis of the deposited data

Results flagged for a closer look

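Adgrl4 in control astrocytes 4 was at 35.6 TPM, far from the other 4 control astrocyte libraries, which lay between 2.7 and 11.0 TPM. It was the only library to stand apart in this way in 32 groups of values tested. Chance alone gives about 1 in 20, so 1 such library among 32 groups is no more than chance gives. The endothelial marker sum of that library, 197.3 TPM, was also the highest of the control astrocytes.

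The KO effect differed between the cell types for 3 receptors, by a test of the difference itself in limma. The contrast was -4.76 on the log2 scale for Adgrg1 (adjusted p = 2.3e-09), 3.26 for Adgre4 (adjusted p = 8.0e-05) and 0.84 for Adgre5 (adjusted p = 0.0268). In all 4 KO microglial libraries Adgrg1 was lower, and Adgre4 and Adgre5 were higher, than in every control microglial library. Adgrg1 and Adgre5 passed the filter of the microglial comparison through 1 genotype alone. That had set the lack of overlap between genotypes, but not the size of the difference. The astrocyte libraries of the genotypes overlapped for each of the 3 genes, and Adgre4 did not exceed 1.1 TPM in any of them. The Adgre5 contrast lost its call under 5 of 27 alternatives, and the Adgre4 contrast under 1.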

How the results depend on the processing

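Calls of Adgrg1, Adgre4 and Adgre5 between genotypes in microglia held under every alternative that tested them (Adgre5 was not tested with the filter at 5 TPM), with Adgrg1 between -6.14 and -3.11 and Adgre4 between 2.85 and 3.97 on the log2 scale. Adgre1 was lost with 1 fit over all groups (adjusted p = 0.205). Receptors called numbered 14 without a filter and 5 with the filter at 5 TPM between control microglia and control astrocytes, where 9 were called, and 19 without a filter between KO microglia and KO astrocytes, where 10 were. The Adgre4 contrast was lost with the pseudocount of 0.1 TPM (adjusted p = 0.0645). The Adgre5 contrast was lost with the pseudocount of 5 TPM (adjusted p = 0.428), without a filter (0.0522) and with quantile normalization (0.0706). The cause of these changes was not tested. TPM keeps no depth, which limits every value near 0.

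Over all genes, the replicate block called 2079 of 13054 in microglia, against 3711. Control and KO microglia with the same number deviated together with a correlation between 0.0026 and 0.023 (3 pairs). For astrocytes it lay between -0.092 and 0.185 (4 pairs). Microglia and astrocytes that share an animal by their labels also correlated weakly, with values from 0.0178 to 0.219. A low correlation therefore cannot decide whether the numbers pair animals across genotypes. The block changed no other call of a receptor than that of the Adgrl4 contrast. In astrocytes 1 gene was called, 85 with 1 fit over all groups, 0 with the block and 0 to 5 under the other alternatives. Quantile normalization moved the median log2 difference of all genes from -0.19 to 0.11 between control cell types and from -0.24 to 0.11 between KO cell types. Genes higher and lower in microglia went from 4016 and 6062 to 5534 and 4850 in controls. In KO animals they went from 4058 and 6599 to 5909 and 5121, and to 4777 and 5909 with median-of-ratios scaling. In the contrast they went from 1133 and 1515 to 1379 and 1283 with median-of-ratios scaling and to 1254 and 1261 with quantile normalization.

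Signs turned only for receptors that were not called. In microglia Adgrl4 was -0.016 with the pseudocount of 5 TPM, -0.12 with quantile normalization, -0.30 with array weights, -0.21 with the replicate block and -0.90 without control animals 1 and 2. Adgra3 was 0.018 with the replicate block and 0.46 against control animals 1 and 2 alone. In astrocytes Celsr2 was -0.018 with median-of-ratios scaling, -0.092 with quantile normalization, -0.032 with array weights and -0.025 without control animals 1 and 2. Against control animals 1 and 2 alone Adgrb3 was 0.31 and Adgrg1 0.035, and without them Adgra1 was 0.044. Without KO astrocytes 1 and 3, Adgra3 was 0.045 and Adgrg1 0.15. In the contrast Adgra3 was 0.050 with the pseudocount of 0.1 TPM and 0.0052 with median-of-ratios scaling, Adgre1 was 0.22 with the pseudocount of 5 TPM and 0.40 without KO astrocytes 1 and 3, and Adgrb3 was -0.027 with quantile normalization.

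Leaving out each library in turn gave these ranges for genes whose sign turned. In microglia Adgrl4 ran from -0.35 to 0.63. In astrocytes Adgra1 ran from -0.24 to 0.18, Adgrb3 from -0.18 to 0.17, Adgrg1 from -0.25 to 0.091 and Celsr2 from -0.054 to 0.082. In the contrast Adgra1 ran from -0.049 to 0.37, Adgra3 from -0.62 to 0.18, Adgrb3 from -0.14 to 0.21, Adgre1 from -0.75 to 0.16 and Celsr2 from -0.013 to 0.12.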

Other observations

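The library whose title says control astrocytes of mouse 3 and whose sample code ends like those of microglia was in no group. Its values were 363.3 TPM for Adgre1, 38.0 TPM for Adgrg1, 4.9 TPM for Adgre4, 3.8 TPM for Adgra3, 0.3 TPM for Adgre5 and 0.1 TPM for Adgrl4, with Adgra1 and Celsr3 listed at 0. Its summed TPM was 38849 for the 10 microglial markers and 290.0 for the 10 astrocyte markers.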
